A study of Mus musculus with 39 samples.

Results

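The DNA replication licensing genes measured here were *Mcm2*, *Mcm3*, *Mcm4*, *Mcm5*, *Mcm6*, *Mcm7*, *Mcm10*, *Cdc6*, *Cdt1* and *Gmnn*. They were found on the array through the transcript accession of each probe, looked up in the RefSeq mouse annotation, and 11 probes for these 10 genes were found among 41174 probes and 18883 named genes. *Cdc6* had 2 probes and every other gene had 1. In GRCm38.p6 they lie on chromosomes 6 (*Mcm2*), 1 (*Mcm3* and *Mcm6*), 16 (*Mcm4*), 8 (*Mcm5* and *Cdt1*), 5 (*Mcm7*), 2 (*Mcm10*), 11 (*Cdc6*) and 13 (*Gmnn*). Each gene is given by its brightest probe, and this probe was well above background on all 39 arrays for each of the 10 genes. All mice were (B6xDBA/2)F1, and the females that gave oocytes and cumulus cells were 8 to 10 weeks old. The groups were metaphase II oocytes that had not been fertilized (OC, n = 7), 2-cell embryos from *in vitro* fertilization (IVF, n = 6) and nuclear donor cumulus cells, the somatic cells around the oocyte (Cumulus, n = 4). Cloned 2-cell embryos had been made by somatic cell nuclear transfer (SCNT) of cumulus nuclei, without any drug (TSA(–), n = 8), with 5 nM of the histone deacetylase inhibitor trichostatin A for the first 8 h after activation (TSA(+), n = 6), or with mRNA of the ETS transcription factor Spi-C injected at the pronuclear stage at 1.0 or 0.1 mg/ml and without TSA (Spi-C NT, n = 4 at each concentration). All embryos had been cultured for 24 h. Each array held RNA from 10 pooled oocytes or embryos or from 500 cumulus cells, amplified in 2 linear rounds, so that fewer cells of a kind and less RNA in each cell could not be told apart. Nothing in the labels says that replicates came from separate collections, and p-values therefore measure the spread between these arrays.

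Replication licensing is the loading of the MCM helicase, a ring of the proteins Mcm2 to Mcm7, onto chromatin before S phase. The origin recognition complex, Cdc6 and Cdt1 load the ring, geminin (*Gmnn*) binds Cdt1 and stops a second round of loading in the same cell cycle, and Mcm10 acts when the loaded ring is turned on. An oocyte carries a maternal store of transcripts for the first divisions of the embryo, and in the mouse much of that store is degraded by the 2-cell stage, when the embryo starts its own transcription.

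Expression levels are log2 intensities from which the 75th percentile of the same array was subtracted; they are thus relative to the bulk of the transcripts in a sample and not absolute amounts. A gene was called when its limma p-value, adjusted over 39520 probes by the Benjamini-Hochberg method, was under 0.01. Between 49.1 and 77.9% of the probes of an array were well above background, with the lowest shares in OC. The labelled tissues were checked with markers. The summed linear level of 8 cumulus markers (such as *Tnfaip6* and *Inhba*) was 225 to 247 times the 75th percentile in Cumulus and at most 3.83 times in all other arrays. Of these 8, 6 were called higher in Cumulus than in OC, *Has2* was not called (mean 0.91 in Cumulus and 0.63 in OC), and *Amh* was called lower and was not well above background on any Cumulus array. In contrast, 7 oocyte markers (such as *Zp3* and *Gdf9*) summed to 359 to 3624 in oocytes and embryos and to at most 1.96 in Cumulus. Of 5 leukocyte markers (such as *Ptprc*) 4 were measured, and they summed to 1.18 to 3.43 in Cumulus and at most 0.222 elsewhere. Against IVF, 3 of these 4 were called higher in Cumulus and 1, *Laptm5*, was called lower. *Laptm5* had a mean of −6.88 in Cumulus, where no array was well above background, and −4.08 in IVF. The part of these markers in the Cumulus results was not tested. Of 6 markers of embryonic genome activation (such as *Zscan4c* and *Zfp352*) 5 were measured, and they summed to 151 to 206 in IVF, 36.0 to 128 in clones and 28.0 to 43.1 in OC. These sums hid unlike genes, although each of the 5 had a lower mean in every group of clones than in IVF. *Zfp352* had means of −3.76 in OC, 5.18 in IVF and at least 4.12 in clones. *Eif1a* had −1.09 in OC, 4.12 in IVF and at least 3.04 in clones. *Zscan4c* had 0.67 in OC, 4.27 in IVF and 0.16 to 0.78 in clones. The means of *Tcstv1* and *Tcstv3* were above OC in TSA(–) and TSA(+) and below OC in Spi-C NT. The part of these 5 markers in the differences between clones and IVF was not tested. The Spi-C NT and Cumulus arrays lay on slides of their own and had been scanned with another scanner model and software version than the other arrays, so that in comparisons of these 2 groups with the others the scan and the group cannot be told apart.

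E2F transcription factors, which act before S phase, are known to regulate MCM genes, and promoter sequences are shown for 4 genes of the ring that did not move in 1 direction in the clones described below. RefSeq windows of 300 bases (GRCm38.p6, from 250 bases before the start site) were at hand for 8 of the 10 genes, not for *Mcm4* or *Gmnn*. Both strands were searched for the E2F letters TTTCCCGC, TTTCGCGC, TTTGCCGC and TTTGGCGC. At least 1 match was present in 6 of the 9 windows of these genes (*Mcm3*, *Mcm5*, *Mcm6*, 1 of 2 windows of *Mcm7*, *Cdc6* and *Cdt1*) and in 2.26% of all 32851 windows. Capitals mark the matches, which overlap each other in *Mcm5* and at the first site of *Mcm6*. In *Mcm7* the last base of the second match is also the first base of a CCAAT box. The windows are chr1:20820263-20820562 on the minus strand (*Mcm3*), chr8:75109259-75109558 on the plus strand (*Mcm5*), chr1:128359656-128359955 on the minus strand (*Mcm6*) and chr5:138171834-138172133 on the minus strand (*Mcm7*), each written 5′ to 3′ along its gene.
Mcm3: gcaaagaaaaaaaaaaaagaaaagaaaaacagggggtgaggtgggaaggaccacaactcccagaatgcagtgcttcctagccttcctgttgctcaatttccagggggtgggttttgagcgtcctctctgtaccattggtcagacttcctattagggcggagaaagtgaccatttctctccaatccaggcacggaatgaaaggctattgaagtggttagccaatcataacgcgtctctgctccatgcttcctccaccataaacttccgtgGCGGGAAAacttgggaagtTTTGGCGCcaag
Mcm5: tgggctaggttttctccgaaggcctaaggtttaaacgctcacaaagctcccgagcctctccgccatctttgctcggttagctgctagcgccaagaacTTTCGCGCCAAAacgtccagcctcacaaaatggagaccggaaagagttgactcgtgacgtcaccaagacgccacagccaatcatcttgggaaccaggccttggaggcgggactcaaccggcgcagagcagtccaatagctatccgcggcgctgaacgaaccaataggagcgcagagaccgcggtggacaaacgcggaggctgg
Mcm6: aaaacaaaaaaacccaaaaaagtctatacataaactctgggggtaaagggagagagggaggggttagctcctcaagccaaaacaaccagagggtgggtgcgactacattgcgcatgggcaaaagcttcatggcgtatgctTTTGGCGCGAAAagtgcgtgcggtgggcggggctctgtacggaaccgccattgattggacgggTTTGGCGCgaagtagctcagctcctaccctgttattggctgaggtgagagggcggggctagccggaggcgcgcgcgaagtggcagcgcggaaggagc
Mcm7: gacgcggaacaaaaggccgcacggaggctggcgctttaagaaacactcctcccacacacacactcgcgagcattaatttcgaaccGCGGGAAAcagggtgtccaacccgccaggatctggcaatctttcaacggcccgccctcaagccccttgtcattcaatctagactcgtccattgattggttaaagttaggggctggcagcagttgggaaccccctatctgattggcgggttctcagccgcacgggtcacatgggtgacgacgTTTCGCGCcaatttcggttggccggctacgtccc
Each of these 4 windows held 2 or 3 E2F matches. The letters CCAAT, the CCAAT box, were in 7 of the 9 windows and in 37.4% of all windows, and the GC box GGGCGG was in 7 and in 35.7%. *Mcm2* and *Mcm10* had no E2F match in their windows. The *Mcm10* window ended in the letters tttggcg, so that a match running past its end could not be seen. *Mcm10* was called higher than IVF in TSA(+) and Spi-C NT embryos, and *Cdc6* and *Cdt1*, each with a match, were not called in any clone. Under some alternatives, such as quantile normalization (0.73, adjusted p = 0.0076), *Cdc6* was called higher in TSA(+). A link between matches and calls was not tested. These matches are a description of the letters and not of binding.

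**Figure D1:**
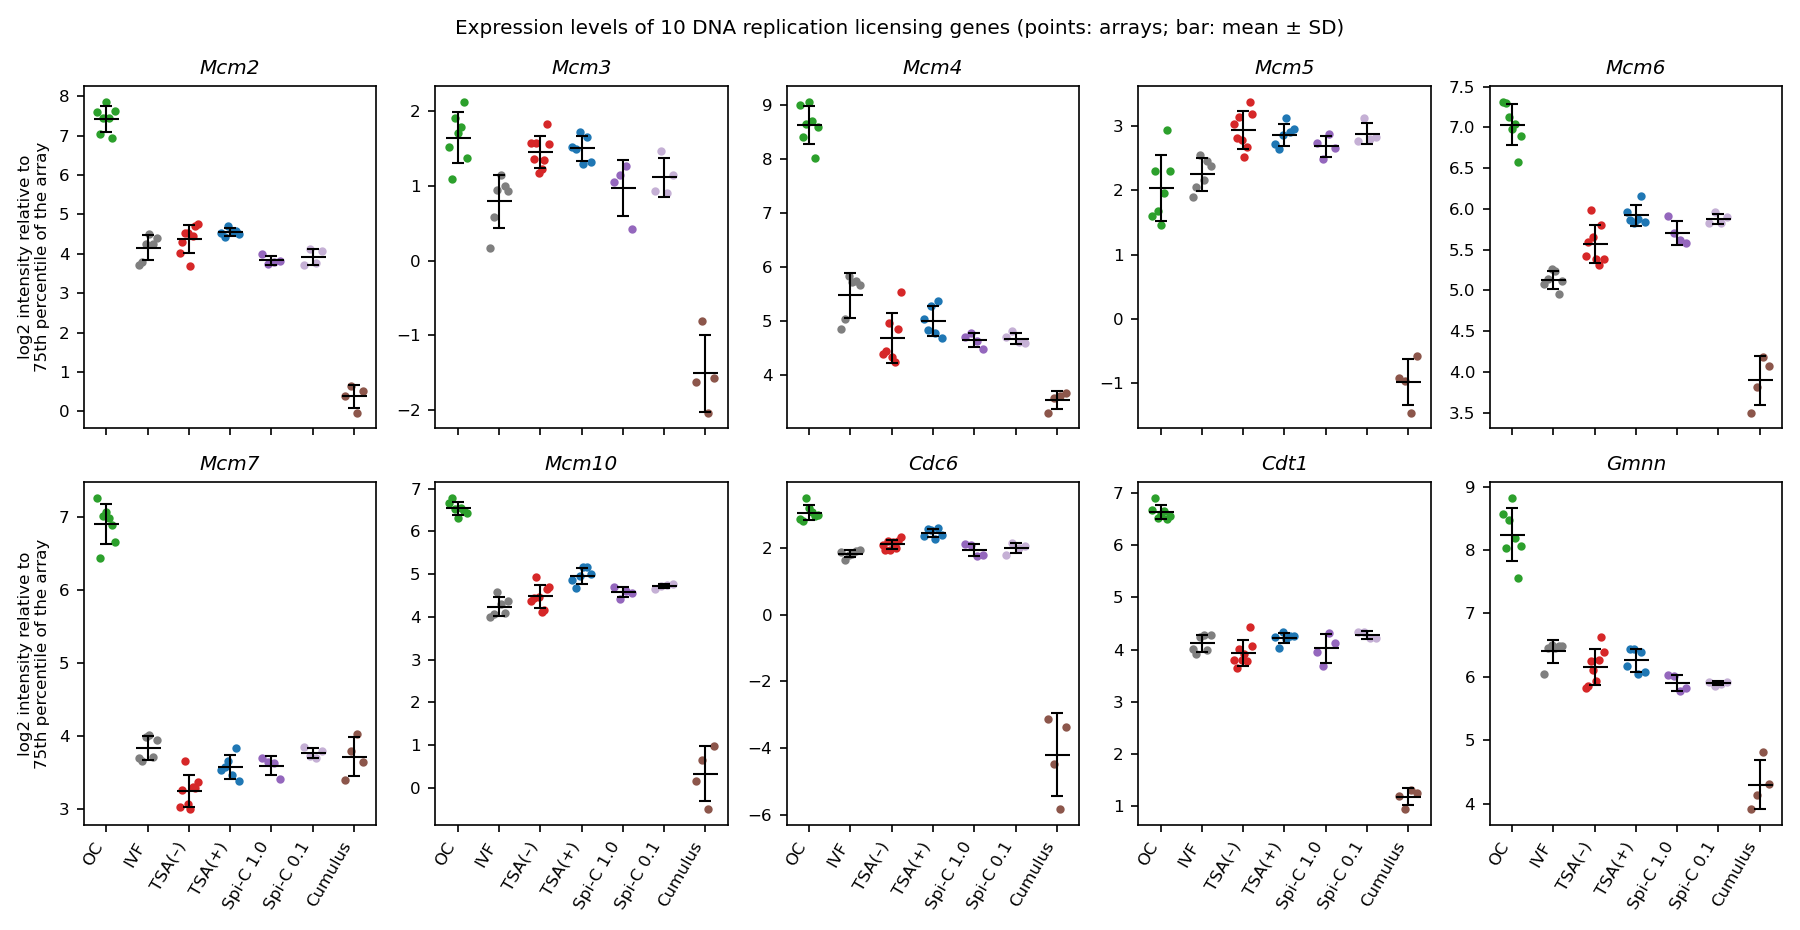
Expression level of the 10 genes in each array (points), on a log2 scale relative to the 75th percentile of the array, for the 7 groups on the x axis; bars are the mean ± SD. With this scaling the mean is highest in OC for 9 genes (not *Mcm5*) and lowest in Cumulus for 9 (not *Mcm7*). After quantile normalization it was highest in OC for *Mcm2*, *Mcm4* and *Mcm7* only.

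With this scaling, oocytes held the highest mean level of 9 of the 10 genes, and Cumulus the lowest mean level of 9. *Mcm2*, a subunit of the ring, had levels from 6.94 to 7.86 (median 7.46) in OC and from 3.72 to 4.51 (median 4.24) in IVF, and −0.03, 0.38, 0.53 and 0.64 in the 4 Cumulus arrays. OC thus stood above every other group and Cumulus below every other group, and the 5 groups of embryos lay between them, each overlapping its neighbour in the order. *Mcm4*, *Mcm6*, *Mcm10*, *Cdc6*, *Cdt1* and *Gmnn* had the same outline, with OC first and Cumulus last and no overlap of either with its neighbour. *Mcm3* differed from them, since its OC arrays (1.09 to 2.13) overlapped those of all 5 groups of embryos, such as TSA(–) (1.17 to 1.82). *Mcm5* had OC in the last place but 1, at 1.47 to 2.93, which overlapped IVF at 1.90 to 2.55. *Mcm7* was highest in OC, at 6.43 to 7.25, and its 4 Cumulus arrays (3.40, 3.65, 3.80 and 4.02) overlapped those of all 5 groups of embryos.

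Between oocyte and fertilized 2-cell embryo, 9 of the 10 genes were called lower and none higher, beside 66% of all probes called (23.3% higher and 42.7% lower), but the sign of *Mcm6* and *Gmnn* turned after quantile normalization (0.26 and 0.48). The median difference of the 10 genes was −2.11 on the log2 scale, beside −0.88 for all probes tested. *Mcm2* was 9.67-fold lower in IVF (log2 difference −3.27, SE 0.18, adjusted p = 6.1e-16). *Mcm4*, another subunit of the ring, fell from 8.03 to 9.07 (median 8.65) in OC to 4.84 to 5.84 (median 5.69) in IVF, a difference of −3.17 (SE 0.21, adjusted p = 1.06e-13). *Mcm7* fell by 3.06 (SE 0.14, adjusted p = 1.18e-17). In none of these 3 genes did the groups overlap.

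The genes that load and turn on the ring were lower in IVF as well. *Cdt1*, the loading factor that geminin blocks, had levels of 6.51 to 6.91 (median 6.60) in OC and 3.92 to 4.28 (median 4.13) in IVF (−2.51, SE 0.12, adjusted p = 5.49e-17). *Mcm10* fell by 2.31 (SE 0.18, adjusted p = 1.70e-12). *Cdc6*, the ATPase that recruits the ring, had 2.80 to 3.49 (median 2.99) in OC and 1.63 to 1.92 (median 1.83) in IVF, a difference of −1.23 (SE 0.25, adjusted p = 7.29e-05). Its second, dimmer probe gave −3.09 (SE 0.52, adjusted p = 4.61e-06). Both probes of *Cdc6* were thus called lower, by amounts that differed by more than either SE. *Gmnn* and *Mcm6* fell by 1.84 (SE 0.18) and 1.90 (SE 0.14), with adjusted p = 2.69e-10 and 6.20e-13.

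*Mcm5* stood apart from the other subunits, with 1.47, 1.60, 1.69, 1.95, 2.30, 2.30 and 2.93 in OC and 1.90, 2.05, 2.15, 2.38, 2.46 and 2.55 in IVF. Its groups overlapped and its difference was not called (0.22, SE 0.20, adjusted p = 0.33). *Mcm3* had the smallest called difference, −0.85 (SE 0.19, adjusted p = 1.95e-04), and its groups overlapped, at 0.17 to 1.14 in IVF. No overlap between the groups was seen for 8 of the 10 genes, beside 51.8% of all probes. Within the 2 slides and 4 scan days that held both groups, which share arrays, the sign was the same for every gene except *Mcm5* (−0.40 to 0.50).

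The choice of scaling carried the size of these differences and, for some genes, their sign. OC arrays were dimmer, with a 75th percentile of 279 to 527 intensity units beside 1029 to 1406 in IVF, and the median difference of all probes was −0.88 with the 75th percentile, −1.55 when arrays were centred on their median and −0.29 after quantile normalization. After quantile normalization *Mcm2* (−1.07), *Mcm4* (−0.82), *Mcm7* (−0.97) and *Cdt1* (−0.46) were still called lower. *Mcm3* (−0.37), *Mcm10* (−0.28) and *Cdc6* (−0.29) were no longer called, *Mcm6* turned to 0.26 (adjusted p = 0.067) and *Gmnn* to 0.48 (adjusted p = 0.0012). *Mcm5* was called higher after quantile normalization (0.90, adjusted p = 3.75e-05), and it was −0.46 after centring on the median. Centring on the median or the 75th percentile subtracts a constant from each array, so that a change between these 2 could not alter the order among genes. With normexp and after quantile normalization, which could, *Mcm2*, *Mcm4* and *Mcm7* still had the lowest differences and *Mcm5* the highest.

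**Figure D2:**
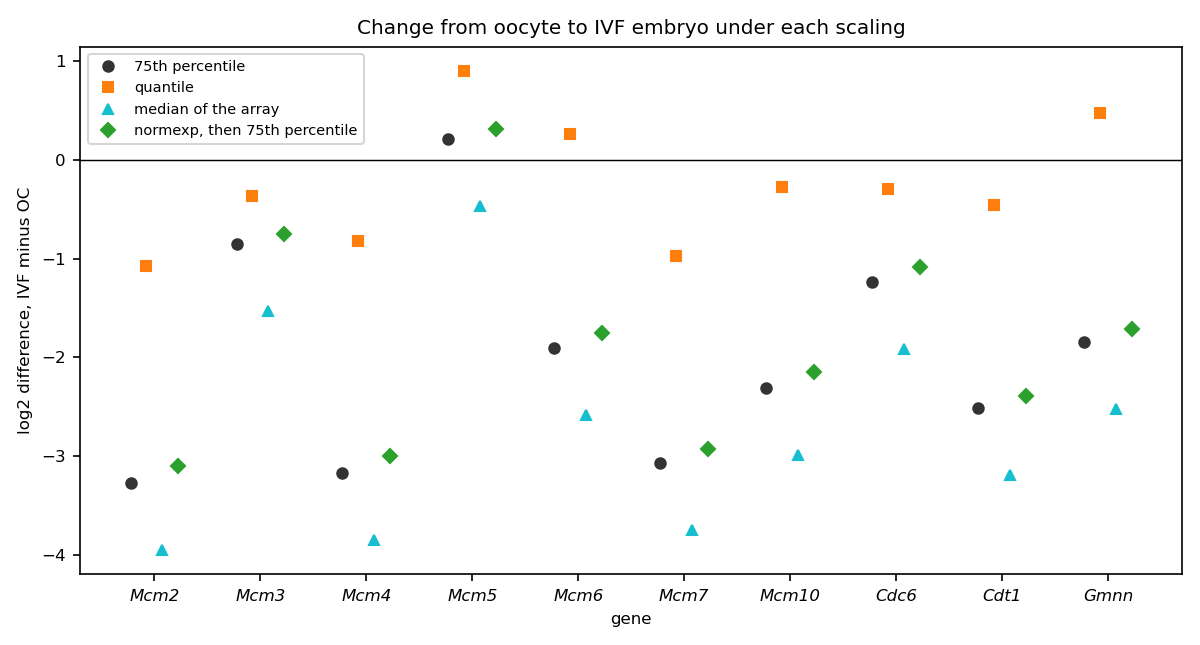
Difference of IVF minus OC for each gene (x axis), as a log2 difference (y axis), under 4 ways of scaling the arrays. The quantile points lie above the others for every gene, and *Mcm6* and *Gmnn* cross 0 (0.26 and 0.48); *Mcm5* is the highest point under each scaling.

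All 10 genes were called lower in Cumulus than in OC (beside 67.8% of probes called, 44.4% lower), with differences from −3.01 (*Mcm5*) to −7.25 (*Cdc6*) and a median of −4.53 beside −1.15 for all probes, and none overlapped (65.2% of all probes did not). Against IVF, 9 of the 10 were called lower (beside 55.2% of probes called, 31.3% lower), with a median of −2.62 beside −0.14, and 9 did not overlap, beside 53.8% of all probes. *Cdc6* was at −3.12, −3.38, −4.46 and −5.83 in the 4 Cumulus arrays, 6.01 below IVF (SE 0.29, adjusted p = 3.23e-17). Its second probe was well above background on 2 of these 4 arrays. *Mcm10* was 3.91 (SE 0.21) and *Mcm2* 3.77 (SE 0.21) below IVF, and no array of Cumulus overlapped IVF for these genes. *Mcm7* had a difference of −0.12 from IVF that was not called (SE 0.17, adjusted p = 0.56) and that turned to 0.78 (adjusted p = 6.33e-04) when arrays were centred on their median. *Mcm6* was 1.24 below IVF (SE 0.16, adjusted p = 1.06e-07) but not called after that centring (−0.35, adjusted p = 0.096). The call of *Mcm6* thus rested on the scaling and that of *Mcm7* also its sign. Both comparisons use the same 4 Cumulus arrays.

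In cloned embryos without any treatment, the subunits of the ring departed from IVF embryos in both directions. *Mcm3* and *Mcm5* were called higher in TSA(–), and *Mcm4* and *Mcm7* were called lower, so that 4 of the 10 genes were called beside 18.8% of all probes (8.49% higher and 10.3% lower). The 10 genes had a median difference of 0.23, beside −0.05 for all probes. *Mcm7* had 3.66, 3.70, 3.72, 3.94, 3.98 and 4.01 in IVF and 3.0 to 3.65 (median 3.28) in TSA(–). No TSA(–) array reached the lowest IVF array, although the highest lay just under it, and the difference was −0.59 (1.5-fold lower, SE 0.14, adjusted p = 0.0017). It was called in every alternative setting run and without any single array, and was −0.44 to −0.87 within the 3 slides and 4 scan days that held both groups. Slides and scan days share arrays and are not separate checks, and some held only 1 array of each group.

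*Mcm4* had 4.84 to 5.84 (median 5.69) in IVF and 4.23 to 5.53 (median 4.44) in the 7 TSA(–) arrays that measured it, since 1 spot was marked as an outlier. The groups overlapped, and the difference was −0.80 (SE 0.21, adjusted p = 0.0053). It missed the threshold when any 1 of 8 arrays was left out (IVF replicates 3 to 6 and TSA(–) replicates 1, 2, 4 and 5; −0.72 to −0.76, adjusted p from 0.012 to 0.017), when arrays were centred on the median (−0.79, adjusted p = 0.0101) and when these 2 groups were fitted alone. Within slides it ranged from −0.16 to −0.86. The sign of *Mcm4* was thus the same throughout, and its call was not.

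*Mcm5* was 1.62-fold higher in TSA(–) (0.69, SE 0.19, adjusted p = 0.0073), at 2.52 to 3.38 (median 2.93) beside 1.90 to 2.55 (median 2.27) in IVF, and its lowest TSA(–) array lay under the highest IVF array. The call was lost without IVF replicate 1, 2, 4 or 6 or TSA(–) replicate 1, 3, 7 or 8 (0.62 to 0.72, adjusted p from 0.011 to 0.023) and after centring on the median (0.72, adjusted p = 0.014). *Mcm3* was 1.58-fold higher (0.66, SE 0.18, adjusted p = 0.0066), at 1.17 to 1.82 (median 1.46) beside 0.17 to 1.14 (median 0.94) in IVF, without overlap. Its call was lost without IVF replicate 1 or 2 or TSA(–) replicate 1, 3, 7 or 8 (0.54 to 0.65, adjusted p from 0.012 to 0.028). Both genes were higher in TSA(–) within each slide and scan day, by 0.50 to 1.00 for *Mcm5* and 0.20 to 1.19 for *Mcm3*. *Mcm6* missed the threshold (0.44, SE 0.14, adjusted p = 0.017) although its groups did not overlap, at 5.32 to 5.99 beside 4.95 to 5.26, and it was called after quantile normalization (0.61) and with normexp (0.47). Tukey's HSD, the study's own method, also called *Mcm6* higher, which made 5 genes called in TSA(–) in place of 4. So did the fit of all 7 groups together and the filter for probes well above background on every array of a group. *Mcm6* was called in 6 of the 15 alternative settings, the threshold of 0.05 among them, and in 0 of the 14 fits with 1 array left out. No overlap was seen for 3 of the 10 genes, beside 14.8% of all probes.

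The loading factors, geminin, *Mcm10* and *Mcm2* were not called in untreated clones. *Cdc6* differed by 0.28 (SE 0.24), *Cdt1* by −0.19 (SE 0.12), *Gmnn* by −0.25 (SE 0.18), *Mcm10* by 0.25 (SE 0.17) and *Mcm2* by 0.22 (SE 0.18), with no call among the 5 (adjusted p from 0.27 to 0.45). The second probe of *Cdc6* gave −0.40 (SE 0.50), the opposite sign. The groups overlapped for all 5 genes.

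**Figure D3:**
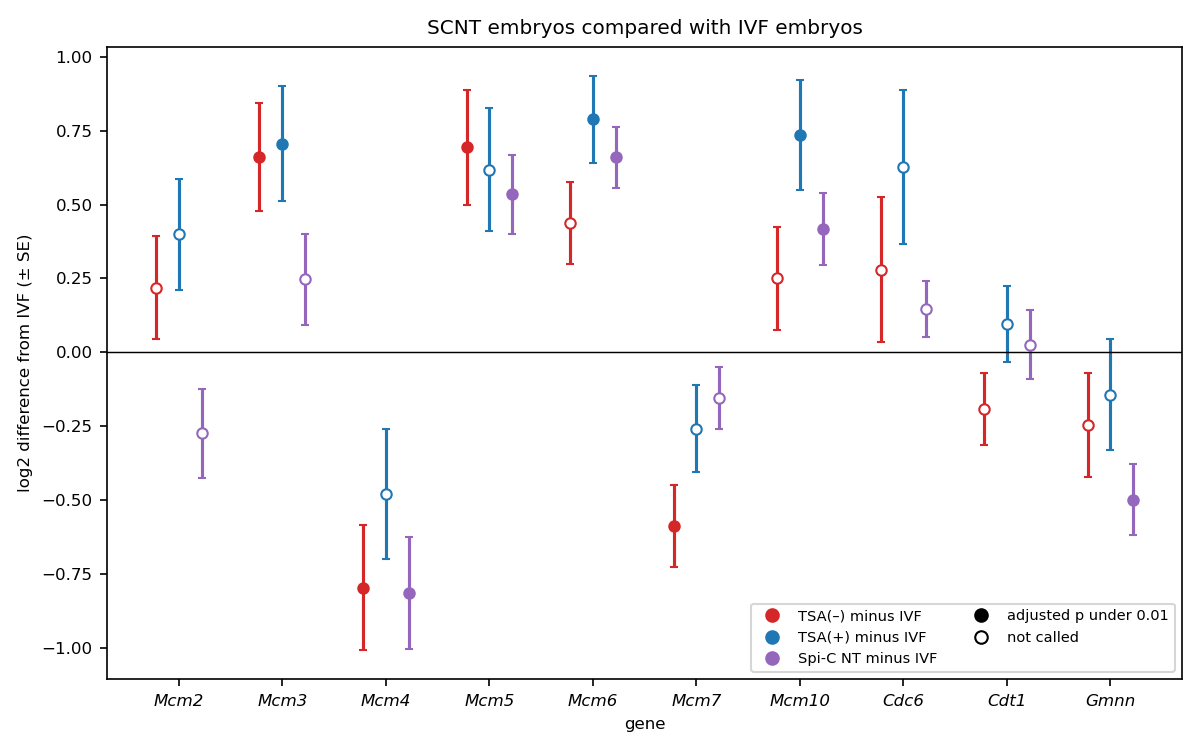
Log2 difference from IVF embryos (y axis, ± SE of the limma fit) for each gene (x axis) in TSA(–), TSA(+) and Spi-C NT embryos; filled points are called at an adjusted p under 0.01. *Mcm3*, *Mcm5*, *Mcm6*, *Mcm10* and *Cdc6* lie above 0 and *Mcm4*, *Mcm7* and *Gmnn* below it in all 3 kinds of clone. After quantile normalization *Mcm7* in Spi-C NT and *Gmnn* in TSA(+) were both 0.08. After centring on the median *Cdc6* in Spi-C NT was −0.0048 and *Gmnn* in TSA(+) 0.07. The 3 differences share the same 6 IVF arrays.

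TSA-treated clones were called higher than IVF for 3 genes, *Mcm3*, *Mcm6* and *Mcm10*, and lower for none, beside 18.9% of all probes (7.83% higher and 11.1% lower). The median difference of the 10 genes was 0.51, whereas that of all probes was −0.23. The latter was −0.02 after centring on the median and 0.01 after quantile normalization. *Mcm6* was 1.73-fold higher (0.79, SE 0.15, adjusted p = 1.33e-04), with 5.82, 5.84, 5.87, 5.88, 5.96 and 6.16 in TSA(+) and 4.95, 5.08, 5.12, 5.14, 5.23 and 5.26 in IVF. The groups lay well apart, and *Mcm6* was called in every alternative setting and without any single array, at 0.71 to 0.90 within slides. *Mcm10* was 1.66-fold higher (0.73, SE 0.19, adjusted p = 0.0033), at 4.67 to 5.16 (median 4.98) beside 3.99 to 4.58 (median 4.19), without overlap. Its call was narrowly lost with the replicate number as a block in the limma fit (adjusted p = 0.0101). *Mcm3* was 1.63-fold higher (0.71, SE 0.20, adjusted p = 0.0066), at 1.29 to 1.71 (median 1.51), also without overlap. The *Mcm3* call was lost without IVF replicate 1 or 2 or TSA(+) replicate 1, 2, 3 or 5 (0.58 to 0.71, adjusted p from 0.012 to 0.025).

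*Mcm5* and *Cdc6* had no overlap between TSA(+) and IVF either, with 2.64 to 3.12 beside 1.90 to 2.55 and 2.27 to 2.59 beside 1.63 to 1.92, but were not called (0.62, SE 0.21, adjusted p = 0.024, and 0.63, SE 0.26, adjusted p = 0.070). Both were called with normexp, after quantile normalization (0.74 and 0.73) and when TSA(+) and IVF were fitted alone. *Mcm5* was also called after centring on the median (0.83, adjusted p = 0.0079). *Mcm2* was not called (0.40), except after quantile normalization (0.56, adjusted p = 0.0064). No overlap was seen for 5 of the 10 genes, beside 20.3% of all probes. *Mcm4* (−0.48, SE 0.22, adjusted p = 0.11) and *Mcm7* (−0.26, SE 0.15, adjusted p = 0.20) were below IVF and were not called, and *Mcm4* ranged from −0.69 to 0.18 within the 3 slides. *Cdt1* (0.10, SE 0.13) and *Gmnn* (−0.14, SE 0.19) had the smallest differences, and that of *Gmnn* was above 0 after quantile normalization (0.08) and after centring on the median (0.07).

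The effect of TSA itself, TSA(+) against TSA(–), was called for none of the 10 genes, beside 0.139% of all probes (0.0455% higher and 0.0936% lower). At an unadjusted p under 0.05 there were 4, *Mcm6*, *Mcm7*, *Mcm10* and *Cdt1*, beside 6435 of all 39520 probes, and Tukey's HSD, the study's own method, called 0. Of the 10 differences 9 were above 0, with a median of 0.30 beside −0.11 for all probes. The median of all probes changed sign with the scaling, to 0.08 after centring on the median and 0.02 after quantile normalization. *Mcm10* had the largest (0.48, SE 0.17, adjusted p = 0.15), with 4.67 to 5.16 in TSA(+) and 4.12 to 4.93 in TSA(–). *Mcm6* differed by 0.35 (SE 0.14), *Mcm7* by 0.33 (SE 0.14), *Mcm4* by 0.32 (SE 0.21) and *Cdt1* by 0.29 (SE 0.12). *Cdc6* differed by 0.35, *Mcm2* by 0.18, *Gmnn* by 0.10 and *Mcm3* by 0.05. *Mcm5* was −0.08 (SE 0.19), and it was 0.11 after centring on the median. The groups overlapped for all 10 genes (1.47% of all probes had no overlap), and calls in TSA(+) but not in TSA(–) against the same IVF arrays therefore do not show a difference between the treatments.

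The difference between 2 genes on the same array is free of any constant subtracted from the array, such as its 75th percentile or median, though not of quantile normalization or normexp, and it shows unequal change only. The 7 pairs computed were chosen after values were seen, and they are described without a test. The share of all gene pairs on the array that set clones apart from IVF was not counted. The pairs without overlap below each set a gene that was higher in clones against *Mcm4* or *Mcm7*, which were lower, and such a choice favours separation. *Mcm6* minus *Mcm7* was 1.18 to 1.48 in IVF. In clones it was 2.02 to 2.58 without TSA, 2.17 to 2.46 with TSA, 1.99 to 2.22 in Spi-C NT at 1.0 mg/ml and 1.98 to 2.23 at 0.1 mg/ml. Each of the 22 clone arrays lay above each of the 6 IVF arrays. *Mcm3* minus *Mcm4* was −4.90 to −4.46 in IVF, and in clones −3.97 to −2.82 without TSA, −3.71 to −3.35 with TSA and −4.07 to −3.34 in Spi-C NT, again without overlap with IVF. *Mcm5* minus *Mcm7* was between −1.85 and −1.26 in IVF. It lay higher in every kind of clone, between −0.62 and 0.09 in TSA(–), −0.93 and −0.34 in TSA(+), and −1.15 and −0.60 in Spi-C NT. In OC and Cumulus *Mcm6* minus *Mcm7* was −0.31 to 0.87 and 0.02 to 0.43, on the far side of IVF from the clones, and so was *Mcm5* minus *Mcm7*. For *Mcm3* minus *Mcm4* this was so in OC (−7.48 to −5.90), while Cumulus (−5.64 to −4.38) overlapped IVF. *Mcm10* minus *Mcm7* also set all clones (lowest 0.78) apart from IVF (0.28 to 0.60). The other 3 pairs did not: TSA(–) overlapped IVF for *Mcm6* minus *Mcm4* (−0.14 to 1.32 beside −0.78 to 0.24) and for *Cdt1* minus *Gmnn* (−2.48 to −2.02 beside −2.54 to −2.03). For *Mcm5* minus *Mcm2*, TSA(+) overlapped IVF (−1.84 to −1.45 beside −2.36 to −1.69).

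**Figure D4:**
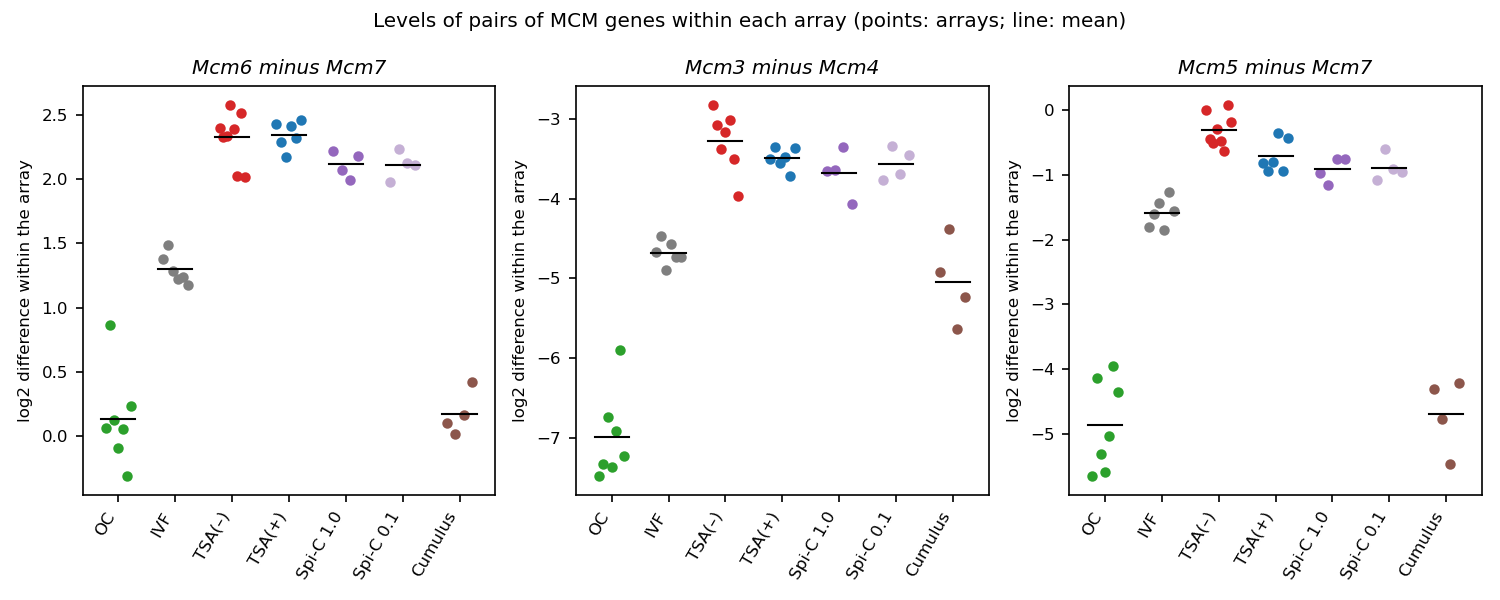
Log2 difference between 2 MCM genes on the same array (points; lines are group means) in the 7 groups. In each panel the clone arrays lie above the IVF arrays, and the OC and Cumulus arrays lie below the clones. The pairs were chosen after values were seen.

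Clones injected with Spi-C mRNA also departed from IVF in both directions. *Mcm5*, *Mcm6* and *Mcm10* were called higher and *Mcm4* and *Gmnn* lower, 5 of the 10 genes beside 35.9% of all probes (18.6% higher and 17.3% lower). The median difference of the 10 genes was 0.09, beside 0.12 for all probes, which became −0.03 after centring on the median. *Mcm6* had 5.58, 5.62, 5.71 and 5.92 at 1.0 mg/ml and 5.82, 5.82, 5.90 and 5.96 at 0.1 mg/ml, all above the IVF arrays (0.66, 1.58-fold, SE 0.10, adjusted p = 8.77e-06). *Mcm4* had 4.49, 4.62, 4.70 and 4.78 and 4.59, 4.60, 4.69 and 4.81, all below the IVF arrays (−0.81, 1.76-fold lower, SE 0.19, adjusted p = 9.80e-04), and after quantile normalization it was −0.50 and not called (adjusted p = 0.0195). *Gmnn* had 5.77 to 6.02 over the 8 arrays, below 6.04 to 6.50 in IVF (−0.50, SE 0.12, adjusted p = 0.0013), and after quantile normalization it was −0.07 and not called. These 3 genes had no overlap, beside 24.7% of all probes.

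*Mcm5* was 0.54 above IVF (SE 0.13, adjusted p = 0.0018), at 2.49, 2.65, 2.73 and 2.88 and at 2.76, 2.80, 2.83 and 3.12, and was not called after centring on the median (0.38, adjusted p = 0.056). *Mcm10* was 0.42 above IVF (SE 0.12, adjusted p = 0.0069), and this call was lost without any 1 of 10 arrays (IVF replicates 1, 2, 4 and 5, replicates 1, 3 and 4 at 1.0 mg/ml and 2, 3 and 4 at 0.1 mg/ml; 0.37 to 0.43, adjusted p from 0.0105 to 0.022) and after centring on the median (0.27, adjusted p = 0.16). *Mcm3* (0.25, SE 0.15), *Mcm2* (−0.27, SE 0.15), *Mcm7* (−0.15, SE 0.10), *Cdc6* (0.15, SE 0.09) and *Cdt1* (0.03, SE 0.12) were not called. The sign of *Mcm7*, *Cdt1* and *Cdc6* was not the same under all scalings, with 0.08 for *Mcm7* after quantile normalization and −0.12 for *Cdt1* and −0.0048 for *Cdc6* after centring on the median. The second probe of *Cdc6* gave −0.96 (SE 0.47, adjusted p = 0.096), the opposite sign.

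Set against untreated clones, Spi-C NT embryos had 2 of the 10 genes called, beside 20.7% of all probes (11.5% higher and 9.2% lower), and a median difference of −0.08 beside 0.13. The median of all probes was −0.04 after centring on the median. *Mcm7* was 1.35-fold higher (0.43, SE 0.10, adjusted p = 0.0012), with 3.41, 3.63, 3.64 and 3.70 at 1.0 mg/ml and 3.70, 3.73, 3.79 and 3.85 at 0.1 mg/ml beside 3.0 to 3.65 in TSA(–). The groups overlapped, and *Mcm7* was not called after centring on the median (0.26, adjusted p = 0.11). *Mcm2* was 1.41-fold lower (−0.49, SE 0.14, adjusted p = 0.0079), at 3.72 to 4.13 beside 3.68 to 4.75. Its call was lost without any 1 of 11 arrays (TSA(–) replicates 2, 3, 4, 6, 7 and 8, replicates 2, 3 and 4 at 1.0 mg/ml and 1 and 3 at 0.1 mg/ml; −0.44 to −0.50, adjusted p from 0.0101 to 0.020) and after quantile normalization (−0.39, adjusted p = 0.024). The other 8 genes differed by −0.41 (*Mcm3*) to 0.22 (*Mcm6*) and were not called. The split of calls changed with the scaling, from 1 higher and 1 lower to 3 higher and 0 lower after quantile normalization, with *Mcm6* at 0.48 (adjusted p = 7.03e-04) and *Cdt1* at 0.39 (adjusted p = 0.0071) beside *Mcm7*, and to 0 higher and 2 lower after centring on the median, with *Mcm3* at −0.59 (adjusted p = 0.0073) beside *Mcm2*. With the 75th percentile the groups overlapped for all 10, beside 9.45% of all probes without overlap. No slide or scan day held both groups.

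The 2 concentrations of Spi-C mRNA were compared on the same 2 slides, and none of the 10 genes was called, beside 0.00506% of all probes. No gene had an unadjusted p under 0.05, and Tukey's HSD called 0. The differences, 1.0 minus 0.1 mg/ml, ranged from −0.25 (*Cdt1*, SE 0.15) to 0.01 (*Gmnn*, SE 0.16), with SEs of 0.12 to 0.25. The groups overlapped for all 10 genes, beside 3.34% of probes without overlap.

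Of the 6 subunits of the origin recognition complex, which marks the sites where the ring is loaded, 5 were called lower and 1 higher in IVF than in OC (median −1.49; all probes 42.7% lower, 23.3% higher, median −0.88), with *Orc4* at −3.51 and *Orc5* at −2.70. In TSA(–) and in TSA(+) 1 subunit, *Orc3*, was called lower than IVF (−0.57 and −0.77), beside 10.3% and 11.1% of all probes lower, and in Spi-C NT embryos 5 of 6 were called lower (median −0.49; all probes 17.3% lower, median 0.12), led by *Orc3* at −0.87, *Orc6* at −0.80 and *Orc1* at −0.60. No subunit of this complex was called higher than IVF in any clone. The 3 measured relatives of the ring, *Mcm8*, *Mcm9* and *Mcmbp*, were called lower in IVF than in OC (−1.60, −2.26 and −3.31), beside 42.7% of all probes. They were also called lower in Spi-C NT than in IVF (−0.47, −0.85 and −0.51), beside 17.3% of all probes. None was called against IVF in TSA(–) or TSA(+).

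Of 13 genes for the activation of the ring, 3 were called higher and 10 lower in IVF than in OC (median −2.35), beside the same 23.3% and 42.7% of all probes. In TSA(–) 2 were called higher than IVF and none lower, *Gins3* of the GINS complex (1.11, adjusted p = 0.0010) and *Wdhd1* (0.72), a share near that of all probes (18.8% called). In TSA(+) *Gins3* (1.23), *Cdc45*, which travels with the ring (0.83), and *Wdhd1* (0.82) were called higher, 3 of 13 beside 7.83% of all probes higher. In Spi-C NT embryos 2 were called higher and 4 lower than TSA(–) (all probes 11.5% and 9.2%), among them both parts of the kinase that turns the ring on, *Dbf4* (−1.13, adjusted p = 1.35e-09) and *Cdc7* (−1.02, adjusted p = 8.33e-08). Of 23 genes of the replication fork, 5 were called higher and 1 lower in TSA(–) than in IVF (all probes 8.49% and 10.3%) and 6 and 1 in TSA(+) (all probes 7.83% and 11.1%), with the DNA polymerase subunit *Pold1* at 1.73 and 1.67 and the clamp loader subunit *Rfc4* at 1.32 and 1.48. The medians of the fork list were −0.0021 and 0.05, beside −0.05 and −0.23 for all probes.

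Of the 6 measured genes for the turnover of Cdt1, all were called lower in IVF than in OC (median −2.85), beside 42.7% of all probes and their median of −0.88. In both TSA(–) and TSA(+) 1 of the 6 was called higher than IVF, 1 lower, and 4 were not called. Of all probes, 8.49% were called higher and 10.3% lower in TSA(–), and 7.83% and 11.1% in TSA(+). The gene called higher was *Cul4a*, a scaffold of the ubiquitin ligase that degrades Cdt1 (0.74 and 0.85), and the gene called lower its partner *Rbx1* (−0.53 and −0.58). Of 13 E2F and pocket protein genes, 1 was called higher and 3 lower in TSA(–) than in IVF (all probes 8.49% and 10.3%), with the pocket protein gene *Rbl2* at 0.90 and the repressors *E2f8* at −1.16 and *E2f7* at −1.07. In TSA(+) 2 were called lower, *E2f7* at −1.33 among them, beside 11.1% of all probes. Against TSA(–), Spi-C NT embryos had 2 called higher and 6 lower (all probes 11.5% and 9.2%), with *E2f4* at −1.79 and *E2f2* at 1.56. In TSA(+) against TSA(–), no gene of any of these lists was called.

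The genes whose 7 group means followed these profiles most closely were sought among 16144 named genes, after each gene was centred on its own mean. The mean profile of *Mcm2* to *Mcm7* was nearest to those of *Naa50* (root mean square distance 0.10 on the log2 scale, Pearson's r 0.997), *Cobl* (0.12) and *Ppp4r2* (0.12). The nearest to *Mcm10* was *Bora* (0.12), to *Cdc6* *Slc44a4* (0.25), to *Cdt1* *Phc2* (0.09) and to *Gmnn* *Tgif2* (0.05). These distances are descriptions over 7 points that share arrays and scaling.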

How the data were processed

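RNA of 39 samples had been labelled with Cy3 and hybridised to Agilent 44K mouse arrays, 1 sample per array. The authors deposited Feature Extraction output (version 9.5.3.1, or 10.5.1.1 for Spi-C NT and Cumulus, per the file headers) with background-subtracted intensity values, and a series table of log2 values, deposited without a stated centring, that was used as an alternative. Each log2 intensity was reduced by its array's 75th percentile, outlier spots were dropped and repeated spots averaged. A probe was tested (39520 of 41174) if 1 or more embryo arrays reached an intensity of 10, with limma 3.58.1 in R 4.3.3. OC, IVF, TSA(–), TSA(+) and Cumulus shared 1 fit, and IVF, both TSA groups and Spi-C NT another, in which Spi-C NT is the mean of both concentrations. The scripts were tested on simulated data. Members and lists were chosen with earlier results of these data known. The text names all 10 genes, for each other list and comparison at most 3 called genes with the largest differences, and the nearest genes by group means. The alternatives were quantile normalization, centring on the median, normexp, other filters, thresholds and sets of samples, slide, scan day and replicate number as blocks, and each array left out. Some of these could hardly change a call. The series values correlated with the scaled values, centred for each probe, at r of at least 0.99978. The alternative threshold of 0.05 could add calls but not remove any. The number of arrays limits the precision.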

Additional observations from a re-analysis of the deposited data

Results flagged for a closer look

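In each of 70 sets of values, 1 gene in 1 group, the highest and lowest array of groups of 4 to 10 was set against the others with Dixon's criterion, which by chance marks about 1 group in 20. It marked 2 arrays. *Cdt1* was highest in OC replicate 2, at 6.91, with the other 6 OC arrays at 6.51 to 6.67 and a gap of 0.606 of the range of the group. *Gmnn* was lowest in IVF replicate 1, at 6.04, with the other 5 IVF arrays at 6.45 to 6.50 and a gap of 0.903 of the range. Without that OC array *Cdt1* was still called lower in IVF than in OC, and without that IVF array *Gmnn* was still called lower in Spi-C NT than in IVF.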

How the results depend on the processing

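Counts of called genes moved by more than 1.5 times under these alternatives. For TSA(+) against IVF, the 3 genes became 6 after quantile normalization, 5 with normexp and 5 when the groups were fitted alone. For TSA(–) against IVF, the 4 genes became 2 when arrays were centred on the median. For Spi-C NT against IVF, the 5 genes became 3 after quantile normalization, 3 after centring on the median and 2 when all 7 groups were fitted together. For Spi-C NT against TSA(–), the 2 genes became 4 with normexp, and 1 each when the groups were fitted alone, when all 7 were fitted together, and with the slide or the scan day as a block. The differences that changed sign where a call was involved were *Mcm6* (0.26) and *Gmnn* (0.48) in IVF against OC after quantile normalization, and *Mcm7* (0.78) in Cumulus against IVF after centring on the median. The cause was not tested. With 1 array left out, the counts ranged from 9 to 9 (IVF against OC and Cumulus against IVF), 10 to 10 (Cumulus against OC), 1 to 4 (TSA(–) against IVF, with 1 without TSA(–) replicate 1), 2 to 3 (TSA(+) against IVF), 4 to 5 (Spi-C NT against IVF), 1 to 2 (Spi-C NT against TSA(–)) and 0 to 0 in the others. Same-numbered arrays of different groups correlated at −0.09 to 0.15 in their deviations from the group means. These low values gave no sign of pairing by number. They cannot exclude a shared collection, on which the labels are silent. With the replicate number as a block the counts were 1 for TSA(+) against IVF, 2 for TSA(–) against IVF and 0 for Spi-C NT against TSA(–). The calls lost against IVF were *Mcm3* and *Mcm10* in TSA(+), *Mcm3* and *Mcm5* in TSA(–), and *Mcm10* in Spi-C NT. Against TSA(–), those of *Mcm2* and *Mcm7* in Spi-C NT were lost.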
